A study of Arabidopsis thaliana with 12 samples.

Results

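AT3G12910 codes for a NAC-domain protein of Arabidopsis thaliana and is read by 1 probe set of 22746 tested. It was chosen for its own values: signal near the bottom of the array in water and far higher with chitooctaose in wild type alone. Every level and difference of AT3G12910 below is therefore a description, given with its error and without a test. The platform annotation ties the probe set to this gene and no other, and the gene table lists AT3G12910 as a protein-coding locus on chromosome 3 with no symbol beyond its locus name.

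The study compared 4 groups of 3 one-colour Affymetrix arrays, each from whole seedlings grown for 14 days in liquid MS medium under constant light at 23 °C. The groups were the chitin receptor mutant given chitooctaose, the mutant given water, wild type Col-0 given chitooctaose and wild type Col-0 given water, all collected after 30 minutes. The mutant is in the Col-0 background, and the labels name neither its allele nor how many lines or seedlings made up a sample. The concentration is labelled as 1 "um", taken here as micromolar. Chitooctaose is a water-soluble oligomer of chitin, which strengthens the walls of fungi. The titles number biological replicates but do not say what separated them, so errors describe the spread between these samples. Array medians ran from 177.5 to 200.5 intensity units, the lowest of the 12 in replicate 1 of wild type with chitooctaose. The transcript of the receptor itself was not analysed here, so the genotype labels were not checked against it. In RNA from whole seedlings, a lower share of cells of a type and less RNA per cell cannot be told apart.

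NAC proteins are plant transcription factors that share a conserved DNA-binding domain at the N terminus, named after NAM, ATAF and CUC genes, and carry variable C-terminal regions that regulate transcription. In Arabidopsis the family includes regulators of organ boundaries, secondary walls, senescence, and drought and pathogen responses. Chitin fragments are bound at the plasma membrane by receptors with LysM domains, and signalling through calcium, protein kinases and transcription factors follows within minutes.

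In the receptor mutant the signal of AT3G12910 with chitooctaose lay within the spread of the water arrays. Intensities were 23.2, 21.6 and 31.1 in the mutant with chitooctaose, against 22.1, 28.2 and 31.2 in the mutant with water. The ranges overlapped almost fully. The means were 25.3 ± 5.1 with chitooctaose and 27.2 ± 4.62 in water (SD, n = 3 each), a difference of -0.07 ± 0.19 in log2(intensity + 16), where adding 16 damps the lowest values and ± after a log2 difference is, here and below, limma's moderated standard error. The 9 pairings gave ratios from 0.693 to 1.41.

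In wild type the signal of AT3G12910 with chitooctaose lay far above that of every other sample. Its intensity was 747, 788 and 830 on the 3 wild type arrays with chitooctaose, against 4.84, 14.0 and 22.9 on the 3 wild type water arrays. The groups did not overlap, and the lowest chitooctaose array was 32.6 times the highest water array. The means were 788 ± 41.3 with chitooctaose and 13.9 ± 9.04 in water (SD, n = 3 each). Relative to the mean, the spread was 5.24% with chitooctaose and 64.9% in water. The ratio of the means was 56.6, but the 9 pairings of a chitooctaose with a water array gave ratios from 32.6 to 171, because replicate 1 of the water arrays lay so near 0. The log2 difference was 4.79 ± 0.19. The difference of the responses, mutant minus wild type, was -4.86 ± 0.26.

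**Figure D1:**
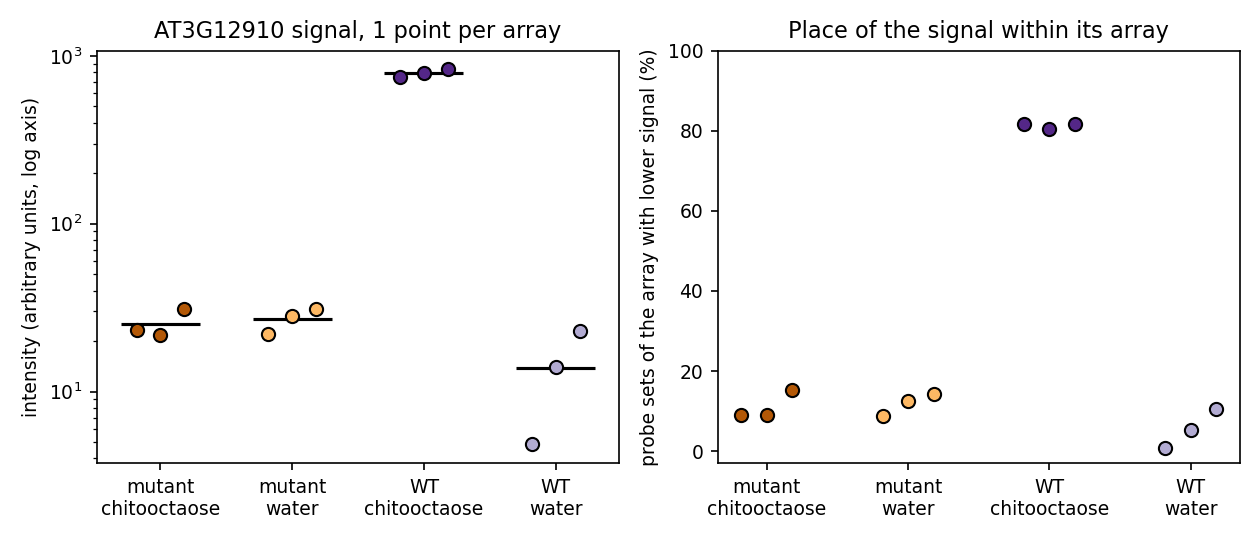
The left panel plots the intensity of AT3G12910 on each of 12 arrays on a log axis, with group means as lines, and the right panel the share of the array's tested probe sets with a lower signal. The 3 wild type arrays with chitooctaose lie at 747 to 830, above 80% of probe sets, and the other 9 arrays at 4.84 to 31.2.

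Between genotypes, the picture depended on the treatment. With chitooctaose the mutant stood far below wild type, with a log2 difference of -4.29 ± 0.19, and wild type over mutant gave a ratio of means of 31.2, with pairings from 24.0 to 38.4. In water the mutant stood slightly above wild type, by 0.57 ± 0.19, at 22.1 to 31.2 in the mutant against 4.84 to 22.9 in wild type. These ranges overlapped at their edges, since the lowest mutant array lay below the highest wild type array. The error of 0.19 assumes the same spread in all 4 groups. In water the SD of the log2 values was 0.16 in the mutant and 0.45 in wild type. Without replicate 1 of the wild type water arrays the difference in water was 0.33. The 4 group means thus ran, from the highest, wild type with chitooctaose, mutant with water, mutant with chitooctaose and wild type with water. Wild type with chitooctaose stood apart from the next group by far more than the spread. The 2 mutant groups did not differ beyond their spread. The mutant with chitooctaose and wild type with water overlapped, with 21.6 as the lowest mutant array and 22.9 as the highest wild type array.

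The position of the signal within each array bears on the description of AT3G12910 as near background. In the mutant with chitooctaose 8.98%, 8.94% and 15.2% of probe sets had a lower signal, and in the mutant with water 8.78%, 12.6% and 14.2%. In wild type with chitooctaose these shares were 81.7%, 80.4% and 81.7%, and in wild type with water 0.818%, 5.24% and 10.5%. Thus 9 arrays placed AT3G12910 among the dimmest 15.2% of probe sets or lower. These shares order signals, not transcript numbers, since probe sets differ in how strongly they bind. The table holds no detection calls, so whether the transcript was present at all on those 9 arrays was not tested.

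Set among all probe sets, the response of AT3G12910 in the mutant was rank 9067 from the bottom, inside the bulk of probe sets, whose median there was -0.03. Its response in wild type was rank 7 from the top, and rank 4 among the 13513 probe sets tied to 1 gene. Its difference of responses was rank 6 from the bottom. With chitooctaose, its difference between mutant and wild type was rank 20 from the bottom. In water, mutant over wild type, it was rank 386 from the top, between groups that both lay near the bottom of the array. Over all probe sets the medians were -0.04 for the wild type response and 0.02 for the difference of responses.

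**Figure D2:**
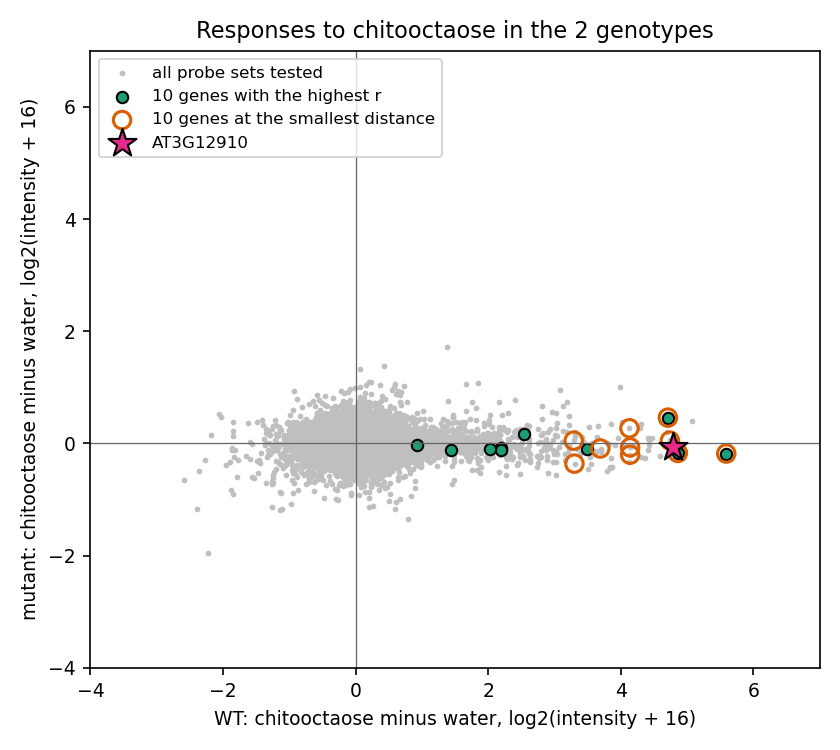
Each point is a probe set, with its wild type response on the x axis and its mutant response on the y axis, both as log2 differences of chitooctaose minus water. AT3G12910 (star) lies at -0.07 for the mutant and 4.79 for wild type, and the genes of like pattern stay between -0.36 and 0.46 on the y axis while spreading from 0.93 to 5.59 on the x axis.

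Because AT3G12910 is so dim in water, the constant added before the logarithm sets much of its fold change. The wild type response was 5.94 with a constant of 1, 4.79 with 16 and 3.46 with 64, with ranks from the top of 3, 7 and 25. The direction was upward in each case. The difference between mutant and wild type in water was 1.12, 0.57 and 0.23 with these constants, with ranks from the top of 214, 386 and 1637. The ranks from the bottom were 3, 6 and 25 for the difference of responses, and 14, 20 and 35 for mutant over wild type with chitooctaose. The response in the mutant stayed between -0.10 and -0.03 with these constants.

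**Figure D3:**
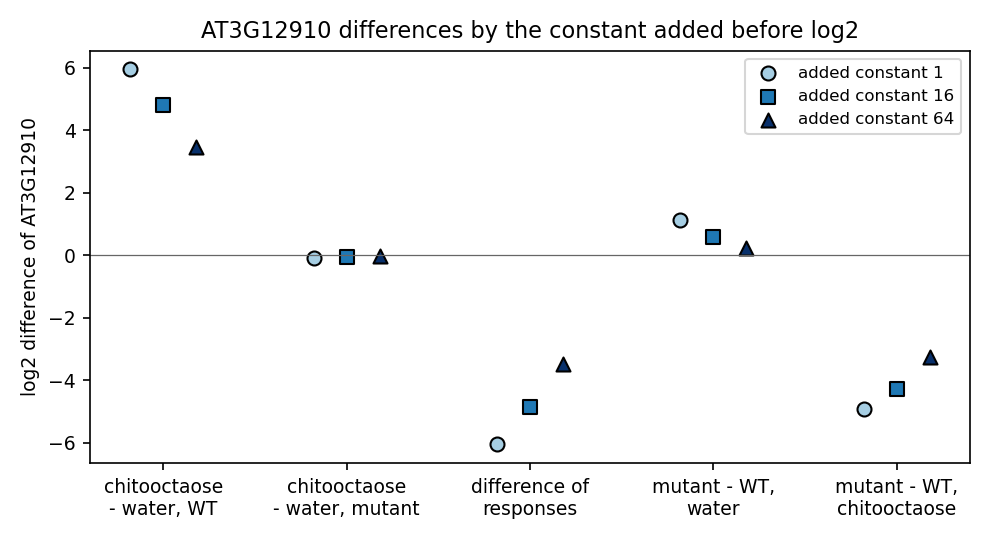
The log2 differences of AT3G12910 in the 5 comparisons are plotted with a constant of 1, 16 or 64 added to the intensity. The mutant response stays within 0.10 of 0 and the wild type response lies between 3.46 and 5.94.

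Few probe sets as dim as AT3G12910 had a response of its size, as was true over all 22746 tested, where it was rank 7. The comparison, chosen after the values were seen, took the 2148 probe sets (9.44% of those tested) whose mean was at most 27.2 in the mutant with chitooctaose, the mutant with water and wild type with water, where 27.2 is the highest of the 3 means of AT3G12910. Their median wild type response was 0.06, with quartiles of -0.12 and 0.23. A response above 1 was seen in 22, above 2 in 14 and above 4 in 5 of them. Whether such responses are rarer or commoner among dim probe sets than among all was not tested. AT3G12910 was rank 2 in this set, behind a probe set for which no gene is listed here (4.81 ± 0.22). The other probe sets above 4 were another with no gene listed and those of AT1G35210 and AT4G37290.

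AT1G35210 had intensities of 496, 729 and 745 in wild type with chitooctaose, against 18.4, 24.3 and 21.8 in wild type with water. AT4G37290 had 459, 692 and 651 in wild type with chitooctaose, against 28.0, 13.6 and 15.4 in wild type with water. Both are listed by locus name alone in the gene table. In the mutant their responses were -0.07 ± 0.19 for AT1G35210 and -0.20 ± 0.19 for AT4G37290, and in wild type both had a response of 4.14 ± 0.19. For these genes too, low signal in 3 groups was part of the choice.

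The genes most like AT3G12910 were sought in 2 ways over the 12 arrays, both on log2(intensity + 16) and both among probe sets tied to 1 gene. The first was Pearson's r, which looks at the shape of the pattern and not its size. The 10 genes with the highest r had values from 0.989 to 0.994. They were AT1G07160, a protein phosphatase 2C (0.994), AT1G51820 (0.994), AT1G64610 (0.991), AT1G24140, a matrix metalloproteinase (0.991), AT1G67470 (0.990), AT3G01830, a calmodulin-like protein (0.989), AT2G32140 (0.989), AT4G27280 (0.989), AT3G15760 (0.989) and AT1G53440 (0.989). Since 3 arrays are high and 9 are low, such an r mostly says that a gene separates the same 3 arrays from the rest with little scatter. Over all 22745 other probe sets, 403 had r above 0.95 and 12 had r above 0.99, of which 5 are tied to 1 gene.

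The sizes of the wild type response differed widely within these 10, from 0.93 ± 0.08 for AT1G53440 and 1.44 ± 0.09 for AT3G15760 to 4.86 ± 0.17 for AT1G24140 and 5.59 ± 0.20 for AT1G07160. AT4G27280 was the brightest of the 10, at 7485 in wild type with chitooctaose and 653 in wild type with water as means of 3 arrays. Its response was -0.10 ± 0.07 in the mutant and 3.49 ± 0.07 in wild type. The responses of the 10 in the mutant ran from -0.18 to 0.46, with AT3G01830 highest (0.46 ± 0.14). In water all 10 had means above wild type in the mutant, as AT3G12910 did, by 0.03 to 0.79 on the log2 scale, where the median of all probe sets was 0.00. The water arrays are among the 12 over which r was computed, so this sign was part of the choice. Among the 10 nearest genes by distance, described next, 7 were above 0 in this comparison and 3 below, with AT2G18210 at -0.46 ± 0.20.

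The second measure was the Euclidean distance between the 12 log2 values, small only where a probe set has a like signal as well as a like pattern. The 10 nearest genes lay at distances from 1.27 to 2.36, where the median probe set lay at 8.65. CML37, a calmodulin-like calcium sensor gene, was nearest at 1.27, followed by AT1G35210 at 1.35, AT2G23270 at 1.71, AT3G01830 at 1.73 and AT4G37290 at 1.77. AT1G36640, AT1G24140, AT1G07160, AT2G18210 and AT1G49000 made up the rest, from 2.18 to 2.36. AT1G07160, AT1G24140 and AT3G01830 were on both lists, 30% of each.

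CML37 was picked as nearest over these same 12 values, so its likeness to AT3G12910 in the level of each group was part of the choice. The order of the arrays within groups was not alike, and deviations from the group means had r = -0.31 over 12 arrays. CML37 had 39.0, 40.1 and 18.6 in the mutant with chitooctaose, and 22.8, 33.2 and 34.1 in the mutant with water. In wild type it had 774, 895 and 871 with chitooctaose, and 21.0, 12 and 16.4 in water. As for AT3G12910, wild type with chitooctaose stood far above the other groups. In water the ranges of CML37 lay just apart, with 22.8 as the lowest mutant array and 21.0 as the highest wild type array. Those of AT3G12910 just overlapped, at 22.1 and 22.9, so at such low signal the genes differed little here. The log2 differences of CML37 were 0.05 ± 0.18 for the mutant response, 4.74 ± 0.18 for the wild type response and 0.50 ± 0.18 for mutant over wild type in water. For AT3G12910 they were -0.07, 4.79 and 0.57. Over the 10 nearest genes, all picked on these values, the mutant response ran from -0.36 to 0.46, and the wild type response from 3.29 to 5.59.

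**Figure D4:**
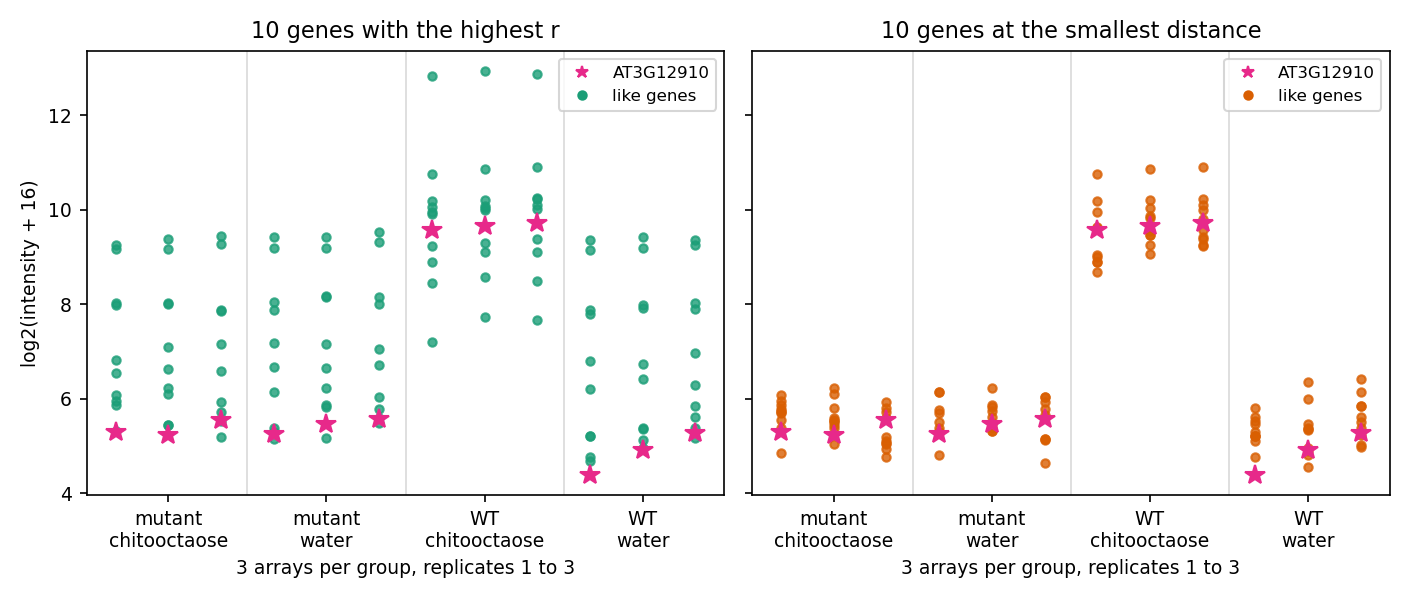
Values of log2(intensity + 16) are shown for the 3 arrays of each group, AT3G12910 as stars and the like genes as dots, with the 10 of highest r on the left and the 10 at the smallest distance on the right. Genes on the left share the step in wild type with chitooctaose at different heights. Those on the right, chosen by distance, come nearer to AT3G12910 in height, with means of 502 to 1819 there against 788.

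Deviations of single arrays from their group means were compared as well, to see whether likeness went beyond the group pattern. For the 10 genes of highest r these deviations correlated with those of AT3G12910 with r from 0.25 to 0.73 (median 0.39, over 12 arrays), and for the 10 nearest genes with r from -0.33 to 0.81 (median 0.10). The median over all probe sets was -0.11, with quartiles of -0.37 and 0.16. For AT3G12910 the SD of the log2 values was 0.45 in wild type with water, against 0.07 to 0.17 in the other groups. The dim arrays of wild type with water therefore weigh most in these r values. The 10 of highest r were picked on the same arrays, which favours agreement in these deviations. All points share the arrays and their scaling, so these values are descriptions. In wild type with chitooctaose, replicate 1 gave the lowest of the 3 intensities for AT3G12910 and for 17 of 17 genes on either list, as it did for 57.5% of all probe sets. That array also had the lowest median intensity, and the part of this in the correlations was not tested.

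Little of the rest of the NAC family could be set beside AT3G12910. Of 103 NAC genes listed, AT3G12910 and 1 other, NAC014 (AT1G33060), had a probe set tied to that gene alone in the annotation given here, and the rest were not analysed here. NAC014 is counted among the NAC factors with a membrane-spanning segment. Its intensities were 294, 251 and 250 in the mutant with chitooctaose, and 246, 260 and 280 in the mutant with water. In wild type they were 194, 242 and 247 with chitooctaose, and 291, 306 and 258 in water. Unlike AT3G12910, NAC014 gave a clear signal in water, and its wild type chitooctaose arrays all lay below the water arrays.

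In the mutant, NAC014 had a response of 0.01 ± 0.11 (limma adjusted p over all probe sets = 0.99, where 1.49% of probe sets were called in either direction). Its difference of -0.31 ± 0.11 in wild type did not pass the threshold of 0.05 either (adjusted p = 0.058, 18.9% called). It lay close to it, with adjusted p from 0.022 to 0.21 over the alternatives, and the outcome was the same in 15 of 20. Without wild type chitooctaose replicate 1 the difference was -0.2 (adjusted p = 0.2). Without wild type water replicate 2 it was -0.26 (adjusted p = 0.21). Leaving out wild type chitooctaose replicate 3 (adjusted p = 0.041) or wild type water replicate 3 (adjusted p = 0.045) gave a call, as did quantile normalization (adjusted p = 0.022), median centring (0.033) and a fit restricted to the brighter probe sets, with the lowest 40% by mean signal dropped (0.038). The difference of responses was 0.32 ± 0.15 (adjusted p = 0.23, 11.3% called). NAC014 in the mutant over wild type was -0.11 ± 0.11 in water (adjusted p = 0.64, 10.3% called) and 0.21 ± 0.11 with chitooctaose (adjusted p = 0.22, 17.3% called).

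Of the 3 annotated genes on each side of AT3G12910, AT3G12900, directly next to it, had a probe set tied to it alone, and the other 5 were not analysed here. In the mutant AT3G12900 had intensities of 37.2, 28.4 and 22.3 with chitooctaose and 50.4, 36.8 and 16 in water, a difference of -0.10 ± 0.32 (limma adjusted p = 0.96). In wild type it had 33.1, 50.5 and 26.8 with chitooctaose and 44.4, 30.0 and 6.37 in water, a difference of 0.39 ± 0.32 (adjusted p = 0.46). The gene was dim in all 4 groups, the ranges overlapped, and neither response passed the threshold. Single water arrays set the size of the wild type difference, which was -0.02 without replicate 3 and 0.69 without replicate 1, neither past the threshold (adjusted p = 0.97 and 0.18).

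On the other side the first measured gene was AT3G12930, 6 places away, a choice made after the annotation was seen. It was bright throughout, with means of 1058 ± 71 in wild type with chitooctaose and 1023 ± 163 in wild type with water (SD, n = 3 each). Its wild type response was 0.06 ± 0.10 (limma adjusted p = 0.76) and its difference of responses -0.07 ± 0.15 (adjusted p = 0.84).

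**Figure D5:**
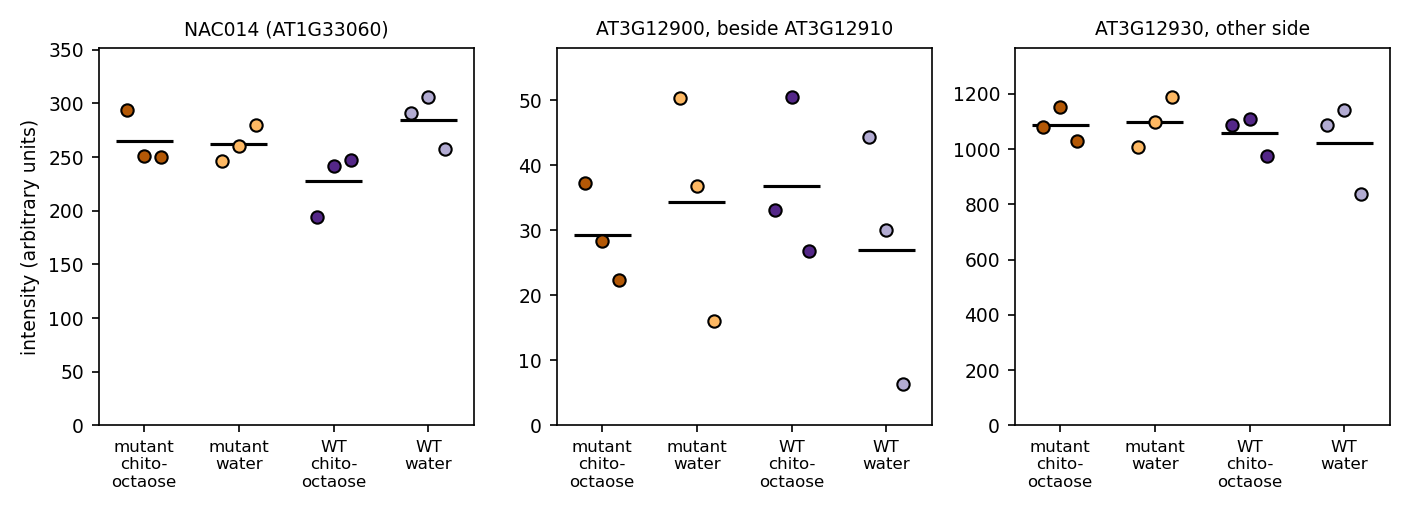
Intensities on a linear axis from 0 are shown for NAC014 and for the nearest measured genes on each side of AT3G12910, with 1 point per array and lines at group means. None of the 3 genes shows the step of AT3G12910 in wild type with chitooctaose.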

How the data were processed

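The authors deposited 1 intensity per probe set and array, on a linear scale. Per the labels' protocols, RNA was extracted with Trizol and made into biotinylated cRNA. Summarisation, background correction and scaling are not given in the sources used here. From the deposited intensities, log2(intensity + 16) was taken without further scaling, 64 control probe sets were left out, and 1 mean per group was fitted to all 12 arrays in limma 3.58.1 (R 4.3.3), which left 8 residual degrees of freedom. The eBayes step, with the mean-variance trend, added 8.3 prior degrees of freedom, and standard errors are the moderated ones. P-values are two-sided and Benjamini-Hochberg adjusted over 22746 probe sets, with a threshold of 0.05. Precision is set by the small number of arrays. Of these probe sets 13513 are tied to 1 gene by the platform annotation, 503 to several and 8730 to none, and 13436 of the 13513 matched the gene table of TAIR10.1. Genes named are AT3G12910, measured NAC genes, the 10 of highest r and 10 of smallest distance, and measured neighbours. The gene studied, lists and tests were chosen with earlier results of these data known. No sequence was used here. Alternatives were quantile normalization, median centring, constants of 1 and 64, a replicate block, no trend, a filter that drops the 40% dimmest probe sets, fits of the compared groups alone and fits without each array. Python 3.11.15 and matplotlib 3.10.9 drew the figures.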

Additional observations from a re-analysis of the deposited data

How the results depend on the processing

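The log2 differences of AT3G12910 kept their direction under the alternatives that could move them. The exception was the mutant response, near 0, which reached 0.00 in a fit without an array. The filter on dim probe sets, the replicate block and leaving out an array from outside the compared groups could not move a difference. The gene was chosen for a higher signal with chitooctaose in wild type alone, so that direction was part of the choice. With a constant of 1 the log2 differences were 5.94 (wild type response), -6.05 (difference of responses), 1.12 (mutant over wild type in water) and -4.92 (with chitooctaose). With 64 they were 3.46, -3.49, 0.23 and -3.25, since the constant damps dim values. Leaving out single arrays gave -0.16 to 0.00, 4.55 to 5.01, -5.07 to -4.62, 0.33 to 0.78 and -4.39 to -4.23 for the mutant response, the wild type response, their difference, and mutant over wild type in water and with chitooctaose.

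NAC014 was the only NAC gene measured besides AT3G12910, so each count is of 1 gene. The count called by limma was 0 in each comparison. At an unadjusted p under 0.05 it was 1 for the wild type response, as for 30.5% of all probe sets, and 0 in the other 4, where 10.8% to 28.0% passed. For the wild type response the adjusted count was 1 (NAC014, lower) under quantile normalization (25.4% of all probe sets called), under median centring (21.8%) and without the dimmest 40% (30.3%), and 0 to 1 without single arrays, the 1 without replicate 3 of wild type with chitooctaose (19.3%) or with water (15.6%). The cause was not tested. Of the 10 genes of highest r, 3 were also nearest by distance, 7 and 6 were kept with constants of 1 and 64, and 6 to 8 without a wild type chitooctaose array, the 6 without replicate 1.

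The titles do not say whether same-numbered arrays share anything beyond a number. Correlations of their deviations ran from -0.041 to 0.137, and a shared batch was not tested. Each group holds every replicate number, so the replicate block could not move the differences of AT3G12910. With the block, the NAC genes called stayed at 0 in each comparison. Signal near the bottom of the array limits any fold change of AT3G12910 against water.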

Other observations

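The genes most opposite to AT3G12910 in pattern were sought among probe sets tied to 1 gene, a search added after the values were seen. In water they lay above the array medians, and in wild type with chitooctaose they were lower. AT5G61590, an ERF gene, had r = -0.994 with AT3G12910 over 12 arrays. Its intensities were 3548, 3525 and 3233 in the mutant with chitooctaose, and 3367, 3337 and 3424 in the mutant with water. In wild type they were 1151, 1309 and 1276 with chitooctaose, and 3883, 3791 and 3640 in water. AT3G23880 and AT1G74940, listed by locus name alone, followed with r = -0.979 each. The log2 difference of chitooctaose minus water was 0.02 ± 0.07 in the mutant and -1.59 ± 0.07 in wild type for AT5G61590. It was 0.01 ± 0.10 and -1.36 ± 0.10 for AT3G23880, and 0.14 ± 0.07 and -0.95 ± 0.07 for AT1G74940, in the mutant and in wild type. All 12 arrays entered the choice, so these are descriptions without a test.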
